A study of Arabidopsis thaliana with 96 samples.

Results

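The genes described here encode proteins of the large (60S) subunit of the cytosolic ribosome of Arabidopsis thaliana. Of 60 listed gene codes, 44 had a probe set that the platform annotation pairs with exactly 1 gene, and each of the 44 had a single such probe set. The other 16 codes were skipped. Testing required a mean log2 signal of at least 5 in 1 or more groups, a level that 41 of the 44 reached, among 7281 tested genes of 13355 with such a probe set. RPL30A (AT1G36240), RPL8B (AT3G51190) and RPL13C (AT3G48960) did not reach that level in any group, with highest group means of 3.47, 3.35 and 3.04, and were not tested. Family names follow the usual naming of plant ribosomal proteins and are given with the gene code, since the files name these genes by code.

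RNA came from roots of Columbia seedlings harvested 5 to 7 days after germination, turned into protoplasts and sorted for green fluorescent protein (GFP). The epidermis was sorted from WER::GFP, the cortex from COR::GFP, the endodermis from SCR::GFP and the stele, the vascular core, from WOL::GFP plants, so cell type cannot be told apart from reporter line or from sort. In each of the 4 cell types, roots spent 1, 3, 8, 20, 32 or 48 h on a medium containing 140 mM NaCl, or stayed on the standard medium for 1 h or 48 h. With 3 Affymetrix ATH1 arrays per condition this gave 32 groups and 96 arrays, in which every cell had also been through protoplasting and sorting. Nothing in the labels says that replicates were separate cultures, and the p-values rest on the spread between samples, part of which may be technical.

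The ribosome's large subunit joins amino acids into protein, holds the tunnel through which the new chain leaves, and carries stalks that bind tRNA and translation factors. Its proteins are assembled on ribosomal RNA in the nucleolus, and the parts are needed in matched amounts. In Arabidopsis nearly every such protein is encoded by a small family of near-identical genes (paralogs), so the same place in the subunit can be filled from several genes. Making ribosomes is a large cost for a growing cell, and the root tip is a main site of that growth.

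Values are deposited log2 signals after GCRMA, which uses the probes' sequences to estimate background and reduces each probe set to 1 normalized value. A signal depends on the probes as well as on the RNA, so signals are compared between samples and not as amounts between genes. Changes are salt minus the mean of the same cell type's 2 standard groups (3 salt against 6 standard arrays), from limma with Benjamini-Hochberg adjustment over 7281 genes. Here "called" means an adjusted p under 0.05 together with a change of 1 or more in size, which is 2-fold. All 6 salt times of a cell type are set against the same 6 standard arrays, and no standard group exists at 3, 8, 20 or 32 h. In sorted RNA, fewer cells of a type and less RNA per cell cannot be told apart. Arrays of a group correlated at 0.956 to 0.998 (median 0.991) over 13355 genes. The 3 arrays with the lowest mean correlation were epidermis standard 48 h replicates 1 and 3 and stele standard 1 h replicate 3 (0.968, 0.969 and 0.970), and counts that move without them are given with both values.

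The cell type labels were checked on 23 markers, of which 6 had a single-gene probe set. The cortex marker AT1G09750, a protease gene, averaged 7.21 ± 1.05 in the cortex, against endodermal, epidermal and stele levels of 5.67 ± 0.31, 3.53 ± 0.33 and 3.44 ± 0.24 (SD, n = 6 standard arrays each). GSO1 (AT4G20140), a receptor kinase gene of the endodermal barrier, averaged 10.3 ± 0.07 in the endodermis, against 8.72 ± 0.32 in the cortex, 8.62 ± 0.70 in the stele and 4.62 ± 0.55 in the epidermis. The other cortex marker, AT1G62510, separated the cortex less, with 10.3 ± 0.26 there, against 9.62 ± 0.36, 8.18 ± 0.46 and 4.99 ± 0.67 in endodermis, stele and epidermis. EXPA7 (AT1G12560), a root hair expansin gene, did not separate the epidermis, with 9.16 ± 1.47 there and 9.99 ± 0.40 in the stele. The other epidermal marker, EXPA18 (AT1G62980), had 8.53 ± 1.47 in the epidermis and 9.65 ± 0.58 in the stele. Both epidermal markers were highest in the stele. LHW (AT2G27230), a transcription factor gene of the stele, was at 4.54 ± 0.50 in the stele and 4.57 ± 0.23 in the endodermis, so it did not mark the stele.

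In salt the large subunit genes rose in all 4 cell types, and none was called lower in any of the 24 comparisons of a salt time with standard medium. Of 984 changes (41 genes in 24 comparisons), 555 were called higher, which is 56.4%, against 9.25% over all genes tested, and 0 were called lower, against 9.8% over all genes tested. All 41 genes were called higher in at least 1 comparison, as 35.0% of all genes tested were. Of the 41, 34 were called higher in every cell type at 1 time or more, which 565 of the 7281 tested genes also were. All 41 were called in the cortex at 32 h and, in the epidermis, at both 32 h and 48 h. In the endodermis none was called at 1 h and at most 33 were called at any time, and in the stele the largest change of all 41 genes came at 48 h.

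**Figure D1:**
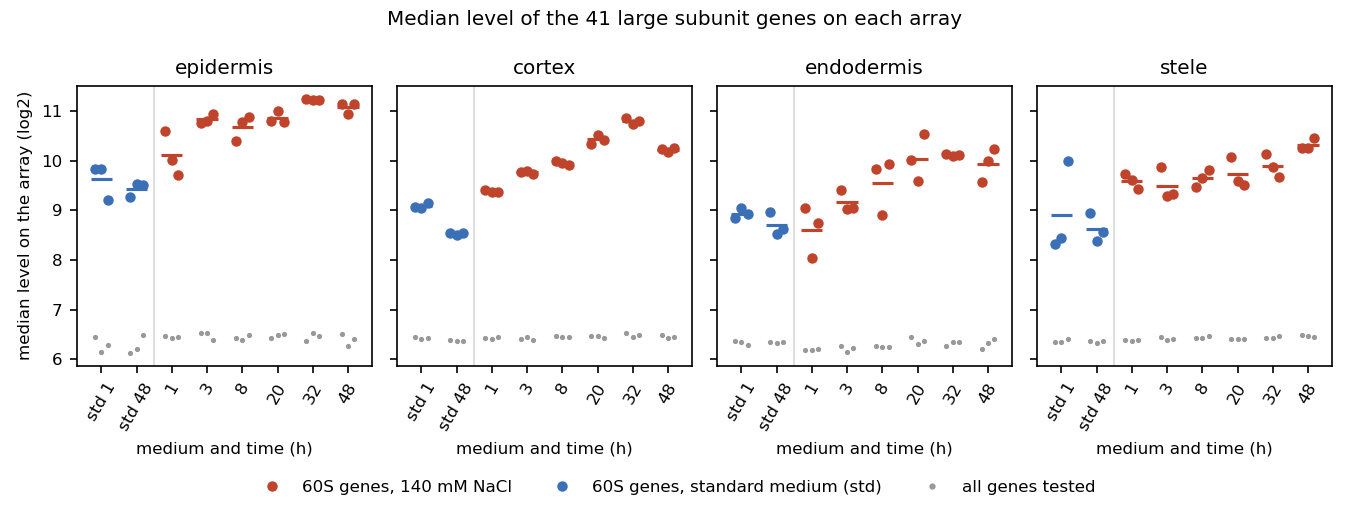
Median log2 signal of the 41 large subunit genes on each array (vertical axis) by medium and time in h (horizontal axis), with standard medium at the left of each panel and a bar for the mean of 3 arrays. Red points are salt arrays, blue points standard arrays, and small grey points the median over all 7281 genes tested, with group means of 6.19 to 6.49 while the large subunit median reached 11.2 in the epidermis at 32 h.

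The median over the 41 genes was computed on each array as a plain summary. In the epidermis it averaged 10.1 ± 0.46, 10.8 ± 0.10, 10.7 ± 0.26, 10.9 ± 0.13, 11.2 ± 0.02 and 11.1 ± 0.11 after 1, 3, 8, 20, 32 and 48 h of salt (SD, n = 3 each), against 9.53 ± 0.27 in standard medium (SD, n = 6). In the cortex the same medians were 9.39 ± 0.03, 9.77 ± 0.03, 9.95 ± 0.04, 10.4 ± 0.09, 10.8 ± 0.06 and 10.2 ± 0.04 in salt, against 8.81 ± 0.31 in standard medium. From 3 h on, every epidermal and cortical salt array lay above every standard array of its cell type. The endodermis gave 8.61 ± 0.52, 9.16 ± 0.22, 9.56 ± 0.56, 10.0 ± 0.47, 10.1 ± 0.02 and 9.93 ± 0.34 in salt, against 8.82 ± 0.21 in standard medium. The stele gave 9.59 ± 0.16, 9.49 ± 0.33, 9.64 ± 0.17, 9.72 ± 0.31, 9.90 ± 0.23 and 10.3 ± 0.12 in salt, against 8.77 ± 0.64 in standard medium. That wide stele spread comes from 1 array, standard 1 h replicate 3, whose median of 10.0 lay above those of most salt arrays of the stele, while the other 5 standard arrays lay between 8.32 and 8.95.

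In standard medium the large subunit signals were highest in the epidermis. Relative to the mean of the other 3 cell types in standard medium, the median difference over the 41 genes was 0.70 in the epidermis, against 0.02 over all genes tested. By adjusted p alone 40 of 41 were higher there (34.6% of all genes), and 3 also passed the 2-fold limit (6.04% of all genes). These were RPL26B (AT5G67510), a protein at the mouth of the exit tunnel, by 1.08 (SE 0.16, adjusted p = 2.58e-08), RPL37C (AT3G16080) by 1.08 (SE 0.18, adjusted p = 3.16e-07) and RPL17A (AT1G27400), which lines the tunnel, by 1.03 (SE 0.17, adjusted p = 2.74e-07). Without epidermis standard 1 h replicate 3 the count was 6. The median differences of the cortex, endodermis and stele were -0.18, -0.20 and -0.31. By limma the cortex (3.74% of all genes higher, 0.618% lower) and the stele (4.81% higher, 2.12% lower) had no called gene. At an unadjusted p under 0.05, 12 genes were lower in the cortex (22.8% of all genes) and 26 in the stele (28.3%), and by adjusted p alone 4 (18.4%) and 22 (25.8%). No gene was called lower in the epidermis (11.2% of all genes) or higher in the endodermis (6.0%).

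RPL26B differed most between cell types. Its standard signals had a lowest, median and highest value of 7.88, 8.19 and 8.53 in the epidermis. The same 3 values were 6.94, 7.45 and 7.65 for the cortex, 6.93, 7.16 and 8.94 for the stele and 6.07, 6.62 and 6.84 for the endodermis. The epidermis lay above the cortex and endodermis on every array, and the cortex and stele overlapped. It was the single gene called lower in the endodermis (4.81% of all genes), by -1.18 (SE 0.16, adjusted p = 4.2e-09). RPL9D (AT4G10450), a protein near the base of the factor-binding stalk, had 5.17, 5.80 and 6.02 in the endodermis, against 6.35, 6.88 and 7.25 in the epidermis, which did not overlap, and 5.91 to 6.95 in the cortex.

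Time on standard medium alone gave small differences, mostly downward. Standard 48 h minus standard 1 h had medians of -0.23, -0.50, -0.28 and -0.23 from epidermis to stele, and limma called none. Of all genes 1.11%, 1.18%, 1.47% and 2.91% were called lower and 0.755%, 1.18%, 0.824% and 3.36% higher. At an unadjusted p under 0.05, 1, 19, 6 and 3 genes were lower in the same order (11.6%, 15.9%, 11.7% and 16.3% of all genes) and none higher. The largest difference was that of RPL35aA (AT1G07070) in the cortex, with 5.37, 5.40 and 5.34 at 48 h, against 6.41, 6.27 and 6.35 at 1 h, which did not overlap. Its change of -0.97 (SE 0.31, adjusted p = 0.0265) and that of its paralog RPL35aC (AT1G74270) passed the adjusted p without the 2-fold limit (6.78% of all genes). The largest differences elsewhere were those of RPL9D in the epidermis (-0.66, SE 0.34), RPL28C (AT4G29410) in the endodermis (-0.66, SE 0.30) and RPL14A (AT2G20450) in the stele (-0.56, SE 0.28), none of which passed. The salt comparisons below use the mean of both standard groups.

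**Figure D2:**
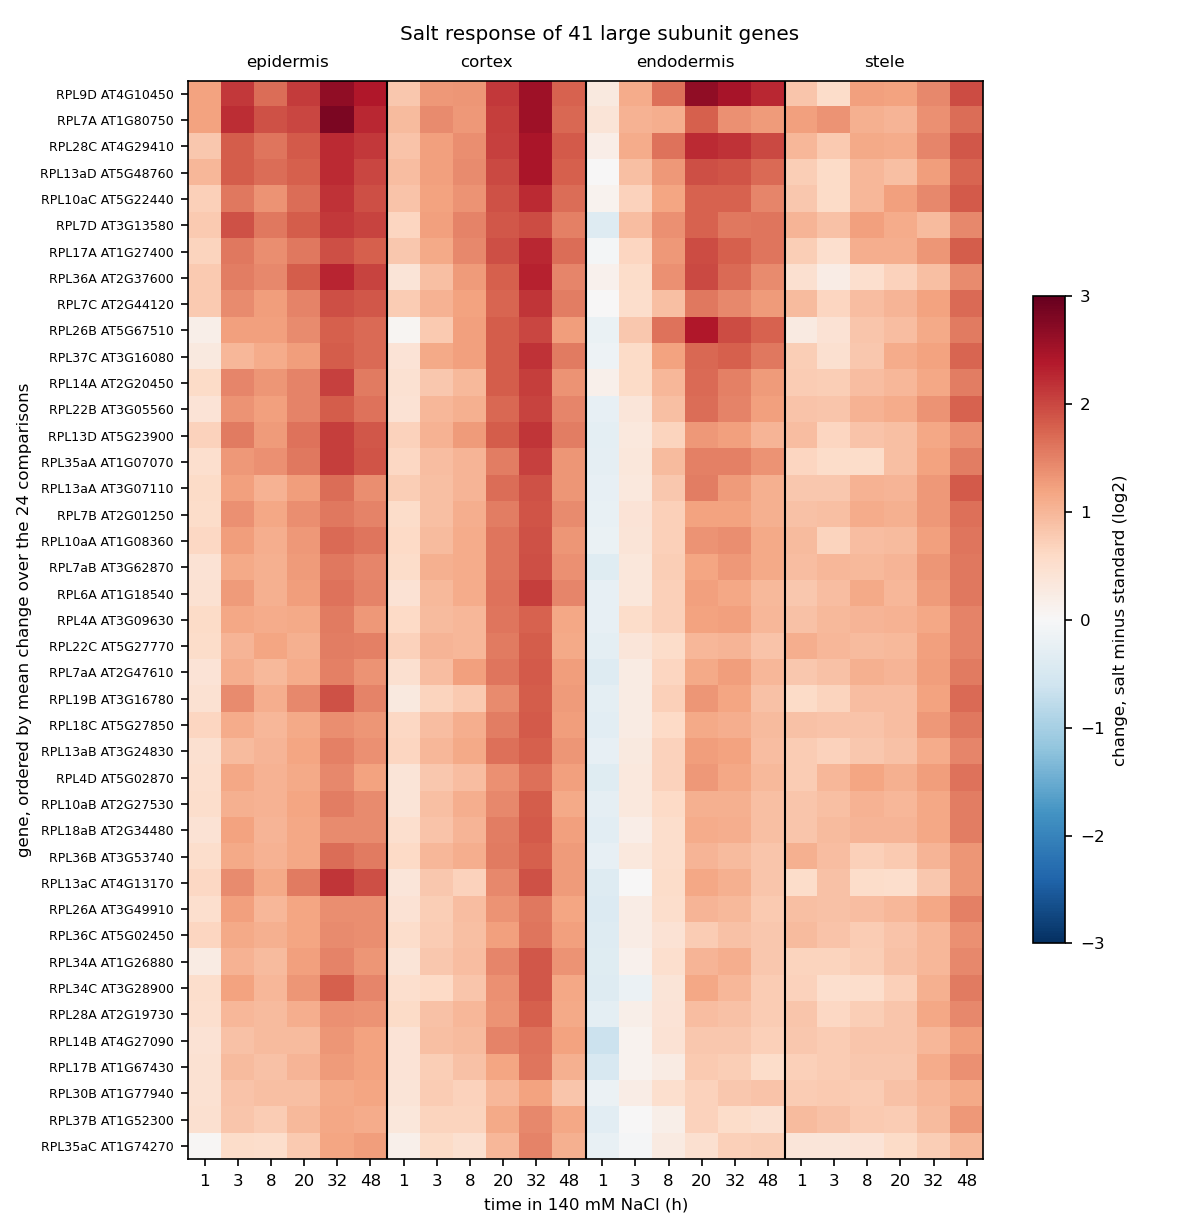
Change in log2 signal, salt minus standard, for each of the 41 genes (rows, ordered by their mean change over the 24 comparisons) at 6 times of salt in 4 cell types (columns). Red is higher and blue lower in salt, and nearly all blue cells lie in the endodermis at 1 h, where 8 of 41 changes were positive.

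In the epidermis the rise reached all members. At 1 h the median change was 0.52 (0.13 over all genes), 29 of 41 were higher by adjusted p alone (30.4% of all genes), and 2 were called (4.16%): RPL7A (AT1G80750), of the L7 family of surface proteins, by 1.20 (SE 0.23, adjusted p = 1.52e-05), and RPL9D by 1.20 (SE 0.30, adjusted p = 0.000783). At 3 h the median was 1.23 (0.12 over all genes) and 34 were called (13.1% of all genes), with 41 of 41 at signals on all 3 salt arrays above all 6 standard arrays (27.6% of all genes). At 8 and 20 h, 30 and 37 were called (10.9% and 13.9% of all genes), with medians of 1.08 and 1.26. At 32 h all 41 were called (17.2% of all genes), with changes of 1.15 to 2.82 and a median of 1.67, and at 48 h again all 41 (16.8% of all genes), with a median of 1.49. The 1 h count was 0 without salt 1 h replicate 1 and 4 without replicate 3, and the 8 h count was 19 without standard 1 h replicate 3 and 16 against the 1 h standard group alone. The actin 3′ minus 5′ signal, which rises as RNA breaks down, was above all epidermal standard arrays (3.41 ± 0.26) at 48 h of salt (3.93 ± 0.09), and the ubiquitin signal below them (1.27 ± 0.10) at 1 h (1.11 ± 0.01). Their part in the result was not tested.

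RPL7A had signals of 9.53, 9.42 and 9.51 after 32 h of salt in the epidermis, against a lowest, median and highest of 6.38, 6.51 and 7.25 in standard medium. This was a rise of 2.82 (SE 0.23, 7.04-fold, adjusted p = 9.4e-18), the largest of any member in any comparison. RPL9D had 9.33, 9.68 and 9.47 in salt, against 6.35, 6.88 and 7.25 in standard medium, a rise of 2.66 (SE 0.30, adjusted p = 3.06e-12). RPL36A (AT2G37600) had 7.67, 7.62 and 7.53 in salt, against 5.12, 5.27 and 5.69 in standard medium, a rise of 2.29 (SE 0.27, adjusted p = 1.89e-11). In all 3 genes every salt array lay above every standard array. The smallest changes in the epidermis were at 1 h, in RPL35aC (0.03, SE 0.17), RPL26B (0.17, SE 0.25) and RPL34A (AT1G26880), at 0.24, none of which was called.

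In the cortex the median change grew at each time up to 32 h and was smaller at 48 h. At 1 h the median change was 0.54 (0.06 over all genes) and limma called none (3.31% of all genes), with 31 of 41 higher at an unadjusted p under 0.05 (28.2%), 24 by adjusted p alone (24%) and 28 above all standard arrays (24.6%). The median was 0.92 at 3 h with 13 called (4.04% of all genes), 1.08 at 8 h with 26 (7.76%), and 1.59 at 20 h with 39 (12.1%). It was 1.89 at 32 h with 41 called (13.8%) and 1.32 at 48 h with 40 (11.2%), where RPL30B (AT1G77940) alone missed the limit at 0.83. From 3 h on all 41 genes lay above all standard arrays, which 23.6%, 31.5%, 32.2%, 34.0% and 31.7% of all genes did. Against the 1 h standard group alone the counts at 3, 8 and 48 h were 6, 11 and 26 and the 1 h median was 0.29, and against the 48 h group alone the counts at 1 and 3 h were 8 and 33. The 1 h count was 1 without standard 1 h replicate 2 and 3 without salt 1 h replicate 2. The actin 3′ minus 5′ signal lay above all standard arrays of the cortex (3.63 ± 0.19) after 32 h (4.22 ± 0.22) and 48 h of salt (3.96 ± 0.10), as the GAPDH signal did at 3 h (0.62 ± 0.06, against 0.36 ± 0.09), and their part in the result was not tested.

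The genes that led the cortex at 32 h were RPL7A, RPL9D and RPL28C. RPL7A had 8.82, 8.73 and 8.98 in salt, against 6.01, 6.30 and 6.60 (lowest, median and highest) in standard medium, a rise of 2.55 (SE 0.23, adjusted p = 1.87e-15). RPL9D had 9.03, 9.03 and 9.06 in salt, against 5.91, 6.53 and 6.95 in standard medium, a rise of 2.55 (SE 0.30, adjusted p = 2.17e-11). RPL28C, a protein found in plants and animals and absent from baker's yeast, had 10.6, 10.4 and 10.5 in salt, against 7.92, 8.04 and 8.22 in standard medium, a rise of 2.45 (SE 0.26, adjusted p = 7.09e-13). The lowest cortex changes were those of RPL26B (0.07, SE 0.25), RPL35aC (0.14, SE 0.17) and RPL19B (AT3G16780), at 0.28, all at 1 h and none called.

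**Figure D3:**
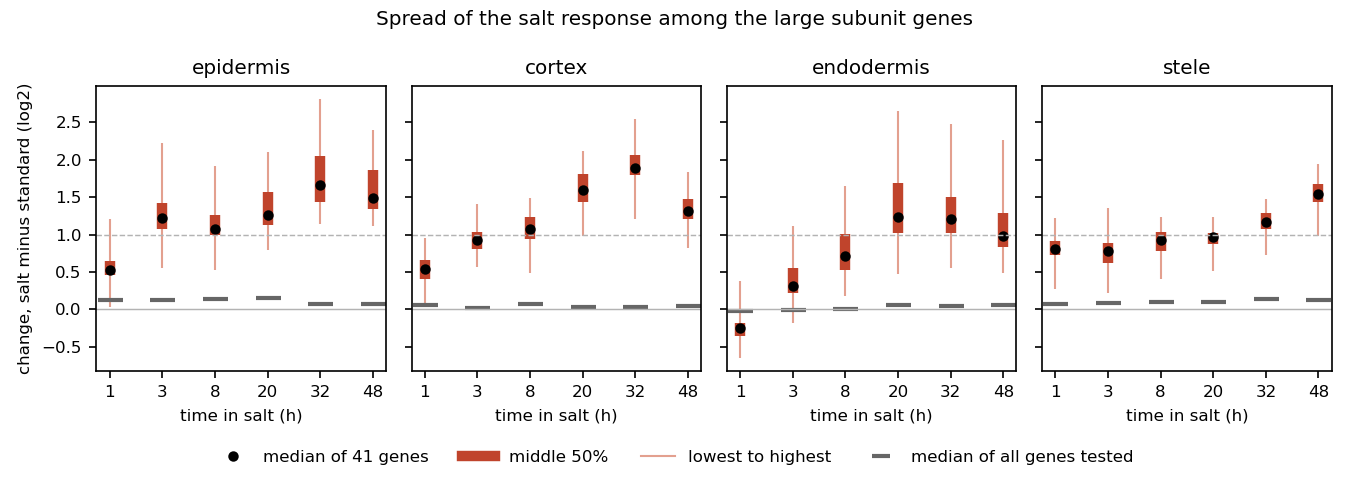
Spread of the salt response among the 41 genes, as change in log2 signal (vertical axis) by time in salt in h (horizontal axis). Black points are the median of the 41 genes, thick bars the quartiles, thin lines the lowest to the highest gene, and grey dashes the median of all genes tested, with the 2-fold limit at 1 drawn as a dashed line.

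In the endodermis no gene was called at 1 h. There the median change was -0.25 (-0.03 over all genes), 8 of 41 changes were positive, and limma called none in either direction (2.62% of all genes higher, 8.64% lower). By adjusted p alone RPL14B (AT4G27090), RPL17B (AT1G67430) and RPL26A (AT3G49910) were lower (27.7% of all genes), by -0.65 (SE 0.18), -0.48 (SE 0.17) and -0.42 (SE 0.17), and 4 were lower at an unadjusted p under 0.05 (30.4% of all genes). These values rest on 1 array, salt 1 h replicate 2, without which the median change was -0.01, 20 of 41 changes were positive and none was lower by adjusted p. Without replicate 1 the median was -0.50, 1 change was positive and 16 genes were lower by adjusted p. RPL14B had 9.83, 9.01 and 9.64 in salt, against 9.86, 10.2 and 10.3 (lowest, median and highest) in standard medium, so all 3 salt arrays lay below all standard arrays (22.0% of all genes), as they did for no other member. The median change was -0.41 against the 1 h standard group alone and -0.12 against the 48 h group alone. RNA quality probes moved at the same time, since the GAPDH 3′ minus 5′ signal was 1.43 ± 0.07 after 1 h of salt, against 0.48 ± 0.15 in standard medium (SD, n = 3 and 6). Its part in the result was not tested.

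At later times the endodermal genes rose, with most calls at 20 and 32 h. The median change was 0.32 at 3 h with 3 called (6.22% of all genes), namely RPL7A, RPL9D and RPL28C, and 0.71 at 8 h with 11 called (8.31%). It was 1.23 at 20 h with 33 called (13.0%), 1.21 at 32 h with 32 (10.3%) and 0.99 at 48 h with 19 (10.2%). By adjusted p alone all 41 were higher at 20, 32 and 48 h (36.3%, 34.4% and 35.6% of all genes). The counts rest on few arrays: that at 3 h was 0 without salt 3 h replicate 1, that at 8 h was 18 without salt replicate 2 and 7 without replicate 3, that at 20 h was 20 without salt replicate 3, and that at 48 h was 32 without salt replicate 1. Against the 1 h standard group alone the count at 3 h was 0, and against the 48 h group alone the counts at 3 and 48 h were 5 and 30. The GAPDH 3′ minus 5′ signal was also above standard medium on all salt arrays at 3, 8 and 48 h (0.85, 0.89 and 0.72). The ubiquitin 3′ minus 5′ signal lay above all standard arrays (1.00 ± 0.08) at 1, 20 and 48 h (1.17, 1.19 and 1.24), and at 32 h no control did.

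At 20 h RPL9D had 8.41, 7.62 and 8.95 in the salt-treated endodermis, against 5.17, 5.80 and 6.02 (lowest, median and highest) in standard medium, a rise of 2.65 (SE 0.30, adjusted p = 6.59e-12). RPL26B had 8.83, 8.40 and 9.52 in salt, against 6.07, 6.62 and 6.84 in standard medium, a rise of 2.41 (SE 0.25, adjusted p = 2.1e-13). RPL28C had 10.0, 9.34 and 10.4 in salt, against 7.13, 7.81 and 8.02 in standard medium, a rise of 2.24 (SE 0.26, adjusted p = 1.64e-11). In each of them replicate 2 was the lowest and replicate 3 the highest salt array, and all stood clear of standard medium.

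In the stele most genes passed the adjusted p from 1 h on, with changes near the 2-fold limit until 48 h. Median changes were 0.81, 0.79, 0.93, 0.97, 1.17 and 1.54 at 1, 3, 8, 20, 32 and 48 h (0.08 to 0.14 over all genes), with 4, 2, 15, 17, 35 and 40 genes called. Over all genes tested 4.22%, 7.36%, 7.16%, 5.04%, 7.70% and 11.5% were called higher at these times. By adjusted p alone 38, 34, 38, 41, 41 and 41 members were higher, and 28.8%, 35.3%, 33.9%, 30.5%, 35.8% and 38.5% of all genes. At 1 h the 4 called genes were RPL7A, RPL36B (AT3G53740), RPL7D (AT3G13580) and RPL22C (AT5G27770), and at 3 h the 2 were RPL4D (AT5G02870) and RPL7A. These counts depend on stele standard 1 h replicate 3, without which they were 30, 22, 30, 38, 40 and 41 and the medians 1.07, 1.03, 1.18, 1.22, 1.46 and 1.80. Without standard 1 h replicate 1 the counts at 1, 3, 8 and 20 h were 1, 1, 2 and 1, and without standard 1 h replicate 2 they were 1, 1, 5 and 3. Without standard 48 h replicate 1 the counts at 1 and 3 h were 8 and 7, and without standard 48 h replicate 2 those at 1, 3, 8 and 20 h were 2, 1, 7 and 7. Among the salt arrays, the 1 h count was 1 without replicate 1 and 9 without replicate 3, and the 3 h count was 1, 12 and 7 without replicates 1, 2 and 3. The 8 h count was 9 without salt replicate 3 and the 20 h count 1 without salt replicate 1. Against the 1 h standard group alone the counts at 8 and 20 h were 2 and 2, and against the 48 h group alone those at 1, 3 and 20 h were 14, 12 and 26.

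With that array kept, 1, 0, 1, 1, 13 and 36 genes had all salt arrays above all standard arrays (15.6%, 23.7%, 18.4%, 16.0%, 20.4% and 24.6% of all genes). Without it the counts were 39, 38, 41, 41, 41 and 41, while 1746 of the 7281 genes tested did so at 1 h and 31.1%, 27.2%, 24.9%, 29.1% and 30.8% from 3 h on. The largest rises came at 48 h. RPL9D had 8.48, 8.32 and 8.36 in salt, against 5.71, 6.16 and 8.42 (lowest, median and highest) in standard medium, a rise of 1.95 (SE 0.30, adjusted p = 5.38e-08), and it overlapped with the 1 highest standard array. RPL28C had 10.1, 9.93 and 10.2 in salt, against 7.48, 8.00 and 9.85 in standard medium, a rise of 1.85 (SE 0.26, adjusted p = 5.32e-09) with no overlap. RPL10aC (AT5G22440), a protein of the L1 stalk, which moves the used tRNA out of the ribosome, had 9.94, 9.79 and 10.2 in salt, against 7.45, 7.85 and 9.59 in standard medium, a rise of 1.85 (SE 0.24, adjusted p = 6.49e-10). The lowest stele changes were those of RPL36A at 3 h (0.21, SE 0.27), RPL26B at 1 h (0.27, SE 0.25) and RPL35aC at 1 h (0.36, SE 0.17).

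The 4 salt responses were then compared with each other at each time by limma's moderated F test, with calls at a range of 1 or more and an adjusted p under 0.05. At 1 h 25 of 41 genes differed among cell types (21.4% of all genes), with the endodermis lowest and the stele highest in each gene named here. RPL14B changed by -0.65 in the endodermis and by 0.43, 0.40 and 0.81 in the epidermis, cortex and stele, a range of 1.46 (adjusted p = 3.06e-05). RPL7D changed by -0.38 in the endodermis and 1.03 in the stele, a range of 1.41 (adjusted p = 0.00233), and RPL22C by -0.28 and 1.08, a range of 1.36 (adjusted p = 0.000859). Without endodermis salt 1 h replicate 2, the array with the lowest large subunit median of its group (8.04), the count was 6, and without stele standard 1 h replicate 1 it was 16.

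At 3 h 13 genes differed, a share of 31.7% (34.5% of all genes), and the epidermis was the highest in each of the 3 named. RPL9D changed by 2.11 in the epidermis and by 1.30, 1.11 and 0.55 in cortex, endodermis and stele, a range of 1.56 (adjusted p = 0.00922). RPL13aC (AT4G13170) and RPL34C (AT3G28900) had ranges of 1.41 (adjusted p = 0.000196) and 1.38 (adjusted p = 0.00856). The count was 8 without epidermis standard 1 h replicate 3, 7 without epidermis salt 3 h replicate 3 and 24 without endodermis salt 3 h replicate 1. At 8 h no gene was called (28.1% of all genes), with the largest range 0.95 in RPL36A, and 3 passed an unadjusted p under 0.05 (64.1% of all genes). By adjusted p alone RPL17B was the single member (58.2% of all genes), at a range of 0.65. Without endodermis salt 8 h replicate 2 or stele standard 1 h replicate 1 the count was 2, and without stele standard 1 h replicate 2 it was 1.

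From 20 h on members were called again, in smaller shares than all genes tested. At 20 h 7 were called (30.5% of all genes), led by RPL26B, which changed by 2.41 in the endodermis and 1.41, 1.82 and 0.93 in the epidermis, cortex and stele (range 1.48, adjusted p = 0.00177). At 32 h 6 were called (29.4% of all genes), led by RPL7A, which changed by 2.82 and 2.55 in the epidermis and cortex and by 1.38 and 1.36 in the endodermis and stele (range 1.45, adjusted p = 2.65e-05). At 48 h RPL13aC alone was called (26.8% of all genes), with 1.95 in the epidermis and 0.83 in the endodermis (range 1.11, adjusted p = 0.00582). The counts were 1 at 20 h, 3 at 32 h and 5 at 48 h without stele standard 1 h replicate 3. They were 3 and 2 at 20 h without stele salt 20 h replicates 2 and 3, and 15 and 12 at 32 h without stele standard 1 h replicates 1 and 2. At 48 h the count was 0 without endodermis salt replicate 1 and 4 without endodermis salt replicate 3. It was 2 without epidermis standard 1 h replicate 1, epidermis salt 48 h replicate 2 or endodermis standard 1 h replicate 3. The smallest differences among cell types over all times were in RPL35aC, RPL14A and RPL30B, whose largest ranges were 0.79, 0.90 and 0.94.

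Within salt, the times differed in most members. The moderated F test over the 6 salt times called 40 of 41 in the cortex (26.5% of all genes), 39 in the endodermis (30.3%), 29 in the epidermis (26.7%) and 12 in the stele (21.9%). The epidermal count was 17 without salt 1 h replicate 3 and the stele count 7 without salt 48 h replicate 3. When fitted on the 24 stele arrays alone, 2 were called. The highest change fell at 32 h for 38 genes in the epidermis and for 41 in the cortex, at 20 h for 27 and 32 h for 12 in the endodermis, and at 48 h for 41 in the stele. RPL26B varied most over time in 3 cell types, with a range of 2.60 in the endodermis, 1.94 in the cortex and 1.62 in the epidermis. RPL9D varied most in the stele, over a range of 1.40.

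The members are described next by their place in the subunit. The proteins of the tunnel are RPL4, whose loop narrows it, and RPL17, and RPL26 and RPL19 sit at its exit. RPL4A (AT3G09630) and RPL4D had mean changes over the 24 comparisons of 1.04 and 0.99 and 15 calls each. RPL17A and RPL17B had means of 1.34 and 0.80 and 18 and 8 calls. RPL26A and RPL26B had 0.93 and 1.18 with 10 and 15 calls, and RPL19B had 1.00 with 12 calls.

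The L1 stalk is built by RPL10a, of which 3 genes were tested. RPL10aB (AT2G27530), also known as PGY1 from a leaf polarity mutant, had a mean change of 0.99 with 15 calls, RPL10aA (AT1G08360) 1.09 with 14 and RPL10aC 1.36 with 18. RPL9D, which had no tested paralog, had the highest mean of all members at 1.65 with 20 calls. The proteins P0, P1, P2 and P3 of the factor-binding stalk were kept as a list of their own, and 11 of 14 were tested. At 32 h 11 of 11 were called higher in the epidermis (17.2% of all genes) and in the cortex (13.8%). The median changes were 1.45 and 1.77. In the stele at 48 h 11 of 11 were called (11.5% of all genes), with a median of 1.40. In the endodermis 7 were called at 20 h (13.0% of all genes), with a median of 1.03.

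The L7 and L13a families had 4 tested genes each. RPL7A, RPL7D, RPL7C (AT2G44120) and RPL7B (AT2G01250) had mean changes of 1.55, 1.35, 1.22 and 1.09 and were called in 22, 18, 16 and 16 comparisons. RPL7A exceeded the median of the 41 genes in 24 of 24 comparisons. In L13a, RPL13aD (AT5G48760) had a mean of 1.43, against 1.10, 1.00 and 0.97 in RPL13aA (AT3G07110), RPL13aB (AT3G24830) and RPL13aC. RPL13aC was called as different among cell types at 4 times, and had 10.2, 10.0 and 10.1 after 32 h of salt in the epidermis, against 7.50, 8.00 and 8.38 (lowest, median and highest) in standard medium, a rise of 2.15 (SE 0.20, adjusted p = 1.72e-15). In the stele at 32 h it had 8.72, 8.46 and 8.19, against 7.23, 7.48 and 8.72, a change of 0.81 (SE 0.20) that was not called.

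The remaining proteins sit in the body and on the surface of the subunit. RPL7aA (AT2G47610) and RPL7aB (AT3G62870) had mean changes of 1.01 and 1.08, RPL22B (AT3G05560) and RPL22C 1.17 and 1.01, and RPL34A and RPL34C 0.90 and 0.89. RPL6A (AT1G18540) had 1.07, RPL13D (AT5G23900) 1.15, RPL18C (AT5G27850) 1.00 and RPL18aB (AT2G34480) 0.99. RPL36A, RPL36B and RPL36C (AT5G02450) had 1.22, 0.98 and 0.90, RPL37C and RPL37B (AT1G52300) 1.18 and 0.75, and RPL14A and RPL14B 1.18 and 0.83. RPL36A had standard means under the level of 5 in the cortex, endodermis and stele (4.54, 4.28 and 4.91), so its changes there start at low signal. The lowest means were those of RPL35aC at 0.60 with 4 calls, RPL37B at 0.75 with 6 and RPL30B at 0.77 with 5, while RPL35aA had 1.12 with 14.

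**Figure D4:**
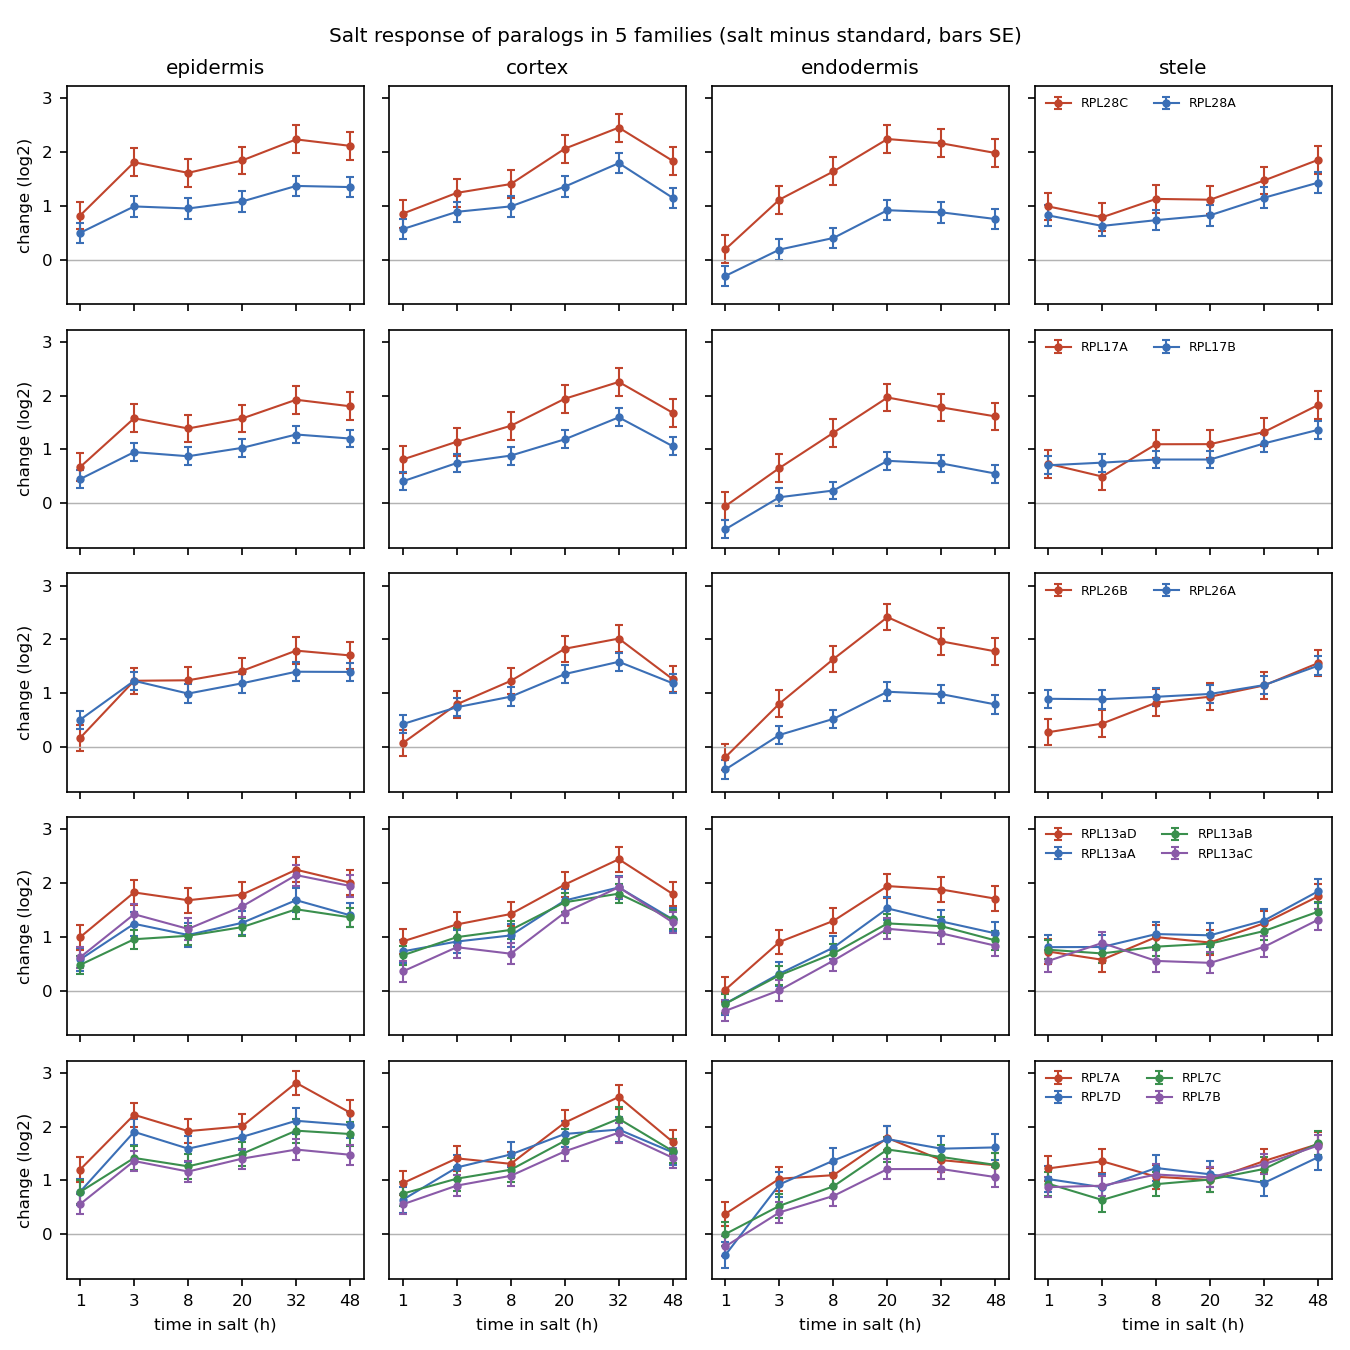
Change in log2 signal, salt minus standard (vertical axis, points, with bars for the SE), by time in salt in h (horizontal axis) for the paralogs of 5 families (rows) in 4 cell types (columns). RPL28C lies above RPL28A in all 24 comparisons. RPL26B lies above RPL26A in 17 of 24, with the widest gap in the endodermis at 20 h (2.41, against 1.03).

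Paralogs of 1 protein differed in the size of the change. In 14 families with 2 or more tested genes, the mean changes of the most and the least changed paralog lay 0.006 (L34) to 0.65 (L28) apart, with a median of 0.36. In 10 of the 14 the paralog of lowest signal had the largest mean change. Over the 41 genes the correlation of change with signal level (rho) ran from -0.79 in the epidermis at 32 h to 0.44 in the stele at 3 h. Over all genes it was -0.27 and -0.18 there. The part of signal level in these differences was not tested. RPL28C and RPL28A (AT2G19730) had means of 1.54 and 0.89, and RPL28C changed more in 24 of 24 comparisons. In the endodermis at 20 h RPL28A had 11.0, 10.6 and 11.4 in salt, against 9.82, 10.1 and 10.4 (lowest, median and highest) in standard medium, a change of 0.92 (SE 0.19) beside the 2.24 of RPL28C. RPL17A changed more than RPL17B in 23 of 24 and RPL35aA more than RPL35aC in 23 of 24. RPL17A had 10.3, 9.79 and 10.9 in the salt-treated endodermis at 20 h, against 7.94, 8.46 and 8.61 in standard medium, a rise of 1.97 (SE 0.26). RPL17B had 11.5, 11.2 and 11.8, against 10.4, 10.8 and 10.9, a change of 0.79 (SE 0.17) that was not called. Differences between paralogs were not tested.

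All 41 genes followed 1 course over the groups. With each cell type's mean removed, every gene correlated at more than 0.9 with the median of the other 40 over the 32 group means (median r = 0.985), and the lowest were RPL35aC (0.938), RPL26B (0.952) and RPL7A (0.953). Of the other 7240 genes tested, 531 (7.33%) passed 0.9 with the median of the large subunit genes, and the median r of the 7240 was 0.116. The 531 include all 42 tested small subunit genes and may include large subunit genes outside the 60 listed codes. The 7.33% is therefore not a share free of ribosomal genes. All genes share the same arrays and normalization here, so the values are a description. The genes most like that median were AT5G15200 (0.996), AT5G35530, AT5G07090 and AT5G20290 (0.995 each), all on the list of small subunit proteins, and AT4G16720 (0.994), which is on no list used here.

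**Figure D5:**
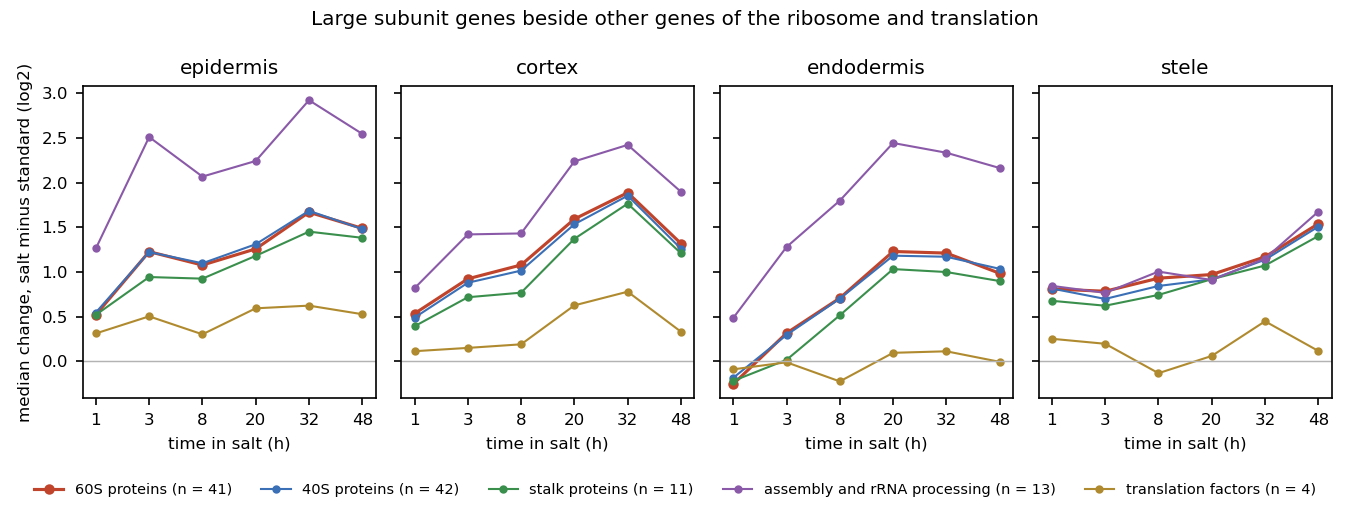
Median change in log2 signal, salt minus standard (vertical axis), by time in salt in h (horizontal axis), for the 41 large subunit genes (red) and for 4 other lists of ribosome and translation genes, with the number of tested genes of each list in the legend. The large and small subunit lines lie on each other. The assembly line is above them outside the stele, and also in the stele at 48 h. The line of 4 translation factors is the lowest from 3 h on.

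The small (40S) subunit genes, which read the messenger RNA, changed by nearly the same amounts. Of 94 listed, 48 had a single-gene probe set and 42 were tested, and all 42 correlated at more than 0.9 with the large subunit median. At 32 h 42 of 42 were called higher in the epidermis (17.2% of all genes) and in the cortex (13.8%). The medians were 1.69 in the epidermis and 1.85 in the cortex, against 1.67 and 1.89 for the large subunit. In the endodermis at 20 h 31 were called (13.0% of all genes), with a median of 1.18. In the stele at 48 h 41 were called (11.5%), with a median of 1.51. AT5G39850 rose most, by 3.28 (SE 0.26, adjusted p = 1.85e-18) in the epidermis at 32 h, followed by AT1G23410 with 3.16 (SE 0.34) there and AT4G30800 with 3.09 (SE 0.30) in the cortex at 32 h. Standard means were 4.09 for AT5G39850 and 5.31 for AT1G23410 in the epidermis, and 4.69 for AT4G30800 in the cortex. The rises of AT5G39850 and AT4G30800 therefore start at low signal, under the level of 5.

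Genes of ribosome assembly and ribosomal RNA processing had larger median changes than the large subunit genes outside the stele, and in the stele at 48 h. Of 30 listed, 13 were tested. In the epidermis at 1 h 11 were called (4.16% of all genes), with a median of 1.26 (0.52 for the large subunit). At 32 h 12 were called there (17.2%), with a median of 2.92. The median was 2.42 in the cortex at 32 h (12 called, 13.8% of all genes). It was 2.44 in the endodermis at 20 h, with 12 higher (13.0%) and 1 lower (11.4%). In the stele at 48 h it was 1.68, against 1.54 for the large subunit (12 called, 11.5%). AT2G40360, the Arabidopsis counterpart of BOP1, rose by 3.12 (SE 0.27), AT5G14520, a pescadillo homologue, by 2.92 (SE 0.26) and AT5G15550, a WDR12 homologue, by 2.94 (SE 0.23), all in the epidermis at 32 h. These 3 proteins form a complex needed to mature large subunit RNA in yeast and mammals. Both genes for BRX1, another large subunit assembly factor, were tested. Their mean changes over the 24 comparisons were 2.13 for AT1G52930 and -0.63 for AT3G15460. AT1G52930 rose by 3.45 (SE 0.31, adjusted p = 9.77e-16) in the epidermis at 32 h. In another cell type and at another time, the endodermis at 3 h, AT3G15460 fell by 1.52 (SE 0.19, adjusted p = 2.64e-10).

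Other lists were small on this array. Of 19 translation factors 4 were tested. At most 2 of the 4 were called higher at any time (2.62% to 17.2% of all genes). AT1G72730, a gene of the helicase eIF4A, fell by 1.45 (SE 0.22) in the endodermis at 1 h. RAPTOR1 (AT3G08850) and RAPTOR2 (AT5G01770), partners of the growth kinase TOR and the tested 2 of 7 genes of that list, were not called at any time, with largest changes of 0.60 and 0.87. Of 20 genes for ribosomal proteins of chloroplasts and mitochondria 3 were tested. All 3 were called in the epidermis at 48 h (16.8% of all genes), with a median of 1.97. None of 16 cell proliferation genes had a single-gene probe set, so that list was not analysed here.

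Cell type markers also differed between salt and standard medium. The summed signal of the 2 cortex markers (2 listed) ranged from 7.88 to 9.79 on the 18 salt arrays of the cortex, against 10.3 to 10.7 on its 6 standard arrays (log2), and from 4.45 to 7.64 in the salt-treated endodermis, against 9.22 to 10.2 there in standard medium. The 2 epidermal markers tested of 6 ranged from 6.49 to 10.9 in the salt-treated epidermis, against 7.12 to 11.3 in its standard medium, and from 4.81 to 9.48 in the salt-treated endodermis, against 8.61 to 10.7. The single endodermal marker of 7, GSO1, ranged from 9.31 to 11.4 in the salt-treated endodermis, against 10.2 to 10.4 in standard medium. The single stele marker of 8, LHW, ranged from 4.77 to 6.25 in the salt-treated stele, against 4.10 to 5.50. The cortex markers ranged from 3.99 to 6.57 in the salt-treated stele, against 7.73 to 8.90, and the 2 epidermal markers from 7.60 to 11.3, against 10.1 to 11.4. Tested and untested genes alike lay above 0 on this scale, so an absent marker does not show as a sum near 0. The cortex markers ranged from 3.70 to 5.18 in the salt-treated epidermis, against 4.67 to 6.22 in standard medium, and GSO1 from 3.37 to 5.13 there, against 3.91 to 5.08. The part of these markers in the large subunit result was not tested. Of 72 comparisons of 3′ minus 5′ control signals between salt and standard medium, 11 had all salt arrays above and 1 all below standard medium, 7 of the 11 in the endodermis.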

How the data were processed

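RNA of 4 sorted root cell types was amplified in 1 cycle and hybridised to Affymetrix ATH1 arrays, per the labels' protocols. Per the submitters' processing notes the authors used Affymetrix Expression Console and GCRMA, and the deposited values are log2 signals, 1 per probe set and array. No scan date or batch is given in the sources used here, and an array has no read depth, so the 3 arrays per group limit the precision. Of 22810 probe sets, 64 controls and those paired with several genes (503) or none were left out, which gave 13355 genes. Where a gene had several probe sets, that with the highest mean over 96 arrays was kept. The platform annotation is used for gene codes, with TAIR10.1 RefSeq for names.

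Values were used as deposited in limma 3.58.1 (R 4.3.3), with 1 mean per group (32 groups, 64 residual degrees of freedom), two-sided moderated tests and Benjamini-Hochberg adjustment over 7281 genes. Comparisons were each salt time against the mean of the same cell type's standard groups, standard 48 h against 1 h, each cell type against the mean of the other 3, and moderated F tests among cell types and over salt times. The fit was tested on simulated data. Alternatives were other normalizations, filters, standard groups, variance settings, a replicate block and leaving out each array. Genes named are, per cell type, the 3 largest rises, falls or changes, those with the largest and smallest ranges among cell types, their paralogs, and up to 3 genes of each further list. RPL17B at 8 h, the cell type markers and a few further genes of the assembly and translation lists were named after their values were seen. The members and gene lists were chosen with earlier results of these data known.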

Additional observations from a re-analysis of the deposited data

Results flagged for a closer look

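The salt response differed among the 4 cell types by the moderated F test (limma, Benjamini-Hochberg adjustment, adjusted p under 0.05 and a range of at least 1) in 25 of 41 large subunit genes at 1 h (21.4% of all genes tested), 13 at 3 h (34.5%), 7 at 20 h (30.5%), 6 at 32 h (29.4%) and 1 at 48 h (26.8%). From 3 h on the share among the members was below that over all genes, and the 1 h count was 6 without endodermis salt 1 h replicate 2. At 1 h the widest ranges of the 4 responses were 1.46 in RPL14B (AT4G27090), 1.41 in RPL7D (AT3G13580) and 1.36 in RPL22C (AT5G27770), each with the lowest response in the endodermis. At 3 h they were 1.56 in RPL9D (AT4G10450), 1.41 in RPL13aC (AT4G13170) and 1.38 in RPL34C (AT3G28900). At 20 h they were 1.48 in RPL26B (AT5G67510), 1.44 in RPL9D and 1.29 in RPL36A (AT2G37600), and at 32 h 1.45 in RPL7A (AT1G80750), 1.40 in RPL36A and 1.33 in RPL13aC. RPL13aC was the single gene at 48 h, with a range of 1.11.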

How the results depend on the processing

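Signs were followed for the median changes and for the selected comparisons of 22 named members. Among these, no called change and no median change of 1 or more in size changed sign under any alternative. The signs of the other called changes were not followed. Smaller or uncalled values were not counted as reversed, whatever their sign. Against the 1 h standard group alone the epidermal median changes at 3, 20, 32 and 48 h were 1.07, 1.12, 1.51 and 1.33, followed by 0.29, 0.69, 0.82, 1.36, 1.63 and 1.07 in the cortex at 1, 3, 8, 20, 32 and 48 h and 1.09 in the endodermis at 32 h, and 1 gene was higher in the epidermis in standard medium. Against the 48 h group alone they were 1.33, 1.43, 1.78 and 1.67 in the epidermis, 0.76, 1.15, 1.30, 1.81, 2.15 and 1.52 in the cortex, 1.35 in the endodermis at 32 h and 1.68 in the stele at 48 h, and 4, 10 and 0 genes differed among cell types at 20, 32 and 48 h. Quantile normalization gave 1.48 in the epidermis and 1.24 in the endodermis at 32 h, and 0.98 and 1.13 in the cortex at 3 and 8 h, with 7 genes among cell types at 3 h. Array median centring gave 1.55, 1.78 and 1.19 in the epidermis, cortex and endodermis at 32 h and 1.25 in the cortex at 48 h, with 8 and 4 genes among cell types at 3 and 20 h. With no filter on low values the medians are taken over all 44 genes with a single-gene probe set, and not over the 41. They were then 1.61 in the epidermis at 32 h and 0.50 in the cortex at 1 h. Fitted on the 24 stele arrays alone, 2 genes varied over the salt times. The cause of these shifts was not tested.

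Leaving out the 3 arrays that correlated least with their groups was chosen after seeing the data. It gave 1.62 in the epidermis at 32 h, 1.07, 1.18, 1.46 and 1.80 in the stele at 1, 8, 32 and 48 h, 6 genes higher in the epidermis, and 1, 3 and 5 genes among cell types at 20, 32 and 48 h. Without 1 array at a time the medians ranged from 1.12 to 1.27 and 1.54 to 1.72 in the epidermis at 3 and 32 h, 0.50 to 0.58 in the cortex at 1 h, 1.18 to 1.27 in the endodermis at 32 h, and 0.66 to 1.07, 0.77 to 1.18, 1.02 to 1.46 and 1.39 to 1.80 in the stele at 1, 8, 32 and 48 h. The counts ranged from 2 to 6 for the epidermis in standard medium, 17 to 38 and 7 to 17 over salt times in the epidermis and stele, and 6 to 36, 7 to 24, 0 to 2, 1 to 9, 3 to 15 and 0 to 5 among cell types at 1, 3, 8, 20, 32 and 48 h.

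Samples with the same replicate number did not, in the median, deviate together (median r 0.02, -0.02, -0.00 and 0.03 in the epidermis, cortex, endodermis and stele over 84 pairs each). Single pairs ranged from -0.47 to 0.61 in the epidermis and from -0.38 to 0.47 in the stele. A median over all pairs cannot show whether some groups share a sort or batch by number. With the number as a replicate block, 41, 41, 34 and 40 genes were called higher in salt at 1 time or more in the same order, the counts found without it (22.6%, 19.1%, 17.8% and 18% of all genes in either fit).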
